A study of Mus musculus with 6 samples.

Results

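MHC class I molecules show peptides from inside the cell on its surface. The 10 genes described here carry this pathway in mouse: the classical heavy chains H2-K1 and H2-D1, the light chain B2m, the peptide-loading genes Tap1, Tap2 and Tapbp, the immunoproteasome subunits Psmb8, Psmb9 and Psmb10, and the regulator Nlrc5. They were chosen by name, with earlier results of these data known, from the 31017 genes of a raw count table. All 10 were present and all 10 passed the filter on low counts, which kept 14268 genes. The table holds RNA sequencing of mouse Th17 cells, helper T cells that secrete interleukin 17, which were grown from precursors in vitro. The question was what the loss of RTF1, a PAF1 complex partner that promotes monoubiquitination of histone H2B, does to their RNA. The 3 control libraries are labelled WT and the 3 RTF1-deficient libraries KO. Strain, age, the allele and any Cre driver are not given in the sources used here, nor is it stated whether the libraries came from separate animals, so p-values measure the spread between these libraries only.

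In the class I pathway, proteasomes cut cytosolic proteins into peptides, the TAP transporter formed by Tap1 and Tap2 moves them into the endoplasmic reticulum, and tapasin, the product of Tapbp, holds empty class I molecules at the transporter until a peptide is bound. In the immunoproteasome the subunits encoded by Psmb8, Psmb9 and Psmb10 take the places of the constitutive Psmb5, Psmb6 and Psmb7, which favours peptides that class I molecules can hold. Interferons raise most genes of the pathway. NLRC5 is a transcriptional coactivator that acts on class I promoters through factors bound to their X and Y boxes, as CIITA does on class II promoters. T cells express class I molecules constitutively.

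On mouse chromosome 17 (GRCm38) lie, in order, Tapbp (chr17:33915899-33929292, plus strand), H2-K1 (chr17:33996017-34000347, minus), Psmb9 (chr17:34181987-34187764, minus), Tap1 (chr17:34187553-34197225, plus), Psmb8 (chr17:34197721-34201454, plus), Tap2 (chr17:34203527-34216321, plus) and H2-D1 (chr17:35262730-35267499, plus), all in the MHC. B2m lies apart from them (chr2:122147686-122153083, plus), as do Nlrc5 (chr8:94434356-94527272, plus) and Psmb10 (chr8:105935735-105938444, minus). Rtf1 lies on the chromosome of B2m (chr2:119675068-119735407, plus). Whether this position bears on B2m or its neighbours was not tested.

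Total counts ran from 16489813 to 51271226 per library. Rtf1 was lower in every KO library: control replicates 1, 2 and 3 held 94.0, 91.2 and 88.3 CPM (counts scaled to a common library total with TMM factors) and KO replicates 45.3, 30.4 and 26.2 CPM, so that 37.2% of the control level remained (log2 fold change −1.42, SE 0.191, edgeR adjusted p = 0.000755). Replicate 3 of both groups carried Y-linked reads, 11376 and 5147 counts over 4 genes against 1 to 3 in the other libraries, and results were therefore also computed with replicates 1 and 2 only. Of all tested genes 23.2% were called higher in KO and 22.9% lower. Of 10 T cell and Th17 markers 2 were called higher and 4 lower, with a summed level of 3132 to 3733 CPM in control and 2075 to 2452 CPM in KO. Cd4 fell from 486 ± 48.6 to 254 ± 36.0 CPM and the Th17 cytokine gene Il17a from 292 ± 63.9 to 92.8 ± 61.6 CPM (SD, n = 3; edgeR adjusted p = 0.00132 and 0.0125). Genes of antigen-presenting cells, which carry much class I, were scarce. Of 12 dendritic and myeloid markers 6 were tested and 2 were called higher and 1 lower, with a median log2 fold change of 1.20. Their summed level was 28.5 to 47.7 CPM in control and 17.6 to 33.1 CPM in KO, and it was lower in KO through Batf3, which fell (34.4 ± 8.65 to 11.8 ± 6.63 CPM). Some other members were higher in KO, as the class I genes were: Xcr1 rose from 0.635 ± 0.239 to 4.91 ± 0.837 CPM (3.02, edgeR adjusted p = 0.000435) and Csf1r from 0.361 ± 0.135 to 1.18 ± 0.535 CPM (1.72, adjusted p = 0.0256), while Zbtb46 lay at 1.82 ± 0.794 and 3.75 ± 1.73 CPM (1.04, adjusted p = 0.0864). Fcgr3 lay lower, at 0.545 ± 0.174 and 0.211 ± 0.0951 CPM (−1.33, adjusted p = 0.0536). Part of the Csf1r exons overlaps Hmgxb3 on the opposite strand, and the counting is not stated to use strand. Too scarce to test, Lyz2 had 0, 2 and 4 counts in control and 46, 11 and 8 in KO, and Itgax 1, 2 and 0 counts in control and 20, 15 and 6 in KO. Adgre1 reached at most 5 counts and Siglech 1 in any library. Of 8 B cell markers 4 were tested and 2 were called lower, and Ms4a1 reached at most 1 count. The 8 summed to 11 to 13.4 CPM in control and 7.73 to 8.96 CPM in KO. Ighm fell from 7.99 ± 1.45 to 4.70 ± 0.854 CPM (−0.77, edgeR adjusted p = 0.0285). Cd79b fell from 0.603 ± 0.307 to 0.158 ± 0.0933 CPM (−1.96, adjusted p = 0.0236). Of 8 CD8 and NK cell markers 5 were tested and 2 were called higher, while Ncr1 and Klrb1c had 0 counts throughout. The 8 summed to 11.1 to 15.3 CPM in control and 16.4 to 17.6 CPM in KO. Eomes rose from 0.0991 ± 0.0574 to 1.55 ± 0.603 CPM (3.78, edgeR adjusted p = 0.000946). Gzma rose from 0.314 ± 0.133 to 1.53 ± 0.235 CPM (2.28, adjusted p = 0.00325). Cd8a was not called, nor were Cd8b1 (7.91 ± 1.76 and 6.42 ± 1.97 CPM) and Klrd1 (4.95 ± 1.94 and 6.88 ± 2.42 CPM). Of 6 erythroid markers 1 was tested and not called, and of 6 fibroblast markers 2 were tested and 1 was called lower. They summed to at most 2.92 and 1.40 CPM in any library, with Hba-a2 and Col3a1 at 0. The part of such cells in the results was not tested.

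Promoter sequences of 8 of the 10 genes were found in RefSeq (GRCm38.p6, the build mm10 that the submitters name). The 150 bases before the transcription start are shown for the chains, because they hold the same pair of short motifs, and for Tap1, because Psmb9 is transcribed away from the same region. Capitals mark matches, on either strand, to the cyclic AMP response element (CRE) core TGACG, which lies in the X2 box of class I promoters, to the Y box CCAAT, whose reverse complement reads ATTGG, and to the interferon-stimulated response element core GAAANNGAAA.
H2-K1 (chr17:34000348-34000497, minus strand): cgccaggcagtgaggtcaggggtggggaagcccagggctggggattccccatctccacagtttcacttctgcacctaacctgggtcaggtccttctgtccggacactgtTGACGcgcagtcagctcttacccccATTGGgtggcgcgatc
H2-D1 (chr17:35262944-35263093, plus strand): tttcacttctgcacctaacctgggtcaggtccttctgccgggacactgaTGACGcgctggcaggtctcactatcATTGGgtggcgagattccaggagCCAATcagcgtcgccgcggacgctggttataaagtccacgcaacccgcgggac
B2m (chr2:122147537-122147686, plus strand): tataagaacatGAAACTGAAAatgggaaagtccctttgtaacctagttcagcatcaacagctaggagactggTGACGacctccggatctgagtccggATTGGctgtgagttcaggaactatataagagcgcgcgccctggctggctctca
Tap1 (chr17:34187406-34187555, plus strand): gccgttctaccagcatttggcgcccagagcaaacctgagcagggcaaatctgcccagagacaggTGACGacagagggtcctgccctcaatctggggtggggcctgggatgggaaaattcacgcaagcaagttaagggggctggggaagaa

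In H2-K1, H2-D1 and B2m the motif TGACG stands exactly 20 bases before ATTGG, on the coding strand. The pair begins 41, 101 and 78 bases before the start. RefSeq gives H2-K1 another start, from which the pair begins 55 bases upstream and which adds a CCAAT on the coding strand 6 to 2 bases upstream. The H2-K1 and H2-D1 windows are 91.0% identical over 177 aligned columns, so they are not independent examples, whereas the best alignment of the B2m window with either covered 39 columns. This spacing, examined after the sequences had been seen, occurs in 18 of 32851 promoters (0.0548%) belonging to 15 genes, and each other spacing from 10 to 30 bases occurs in at most 11 promoters. Of those 15 genes 11 were tested; 6 were called higher in KO, the 3 chains among them, and 1, Hspa14, was called lower, where 23.2% and 22.9% of all tested genes were. The spacing was read from the chains, and without them 3 of 8 tested genes were called higher and 1 lower. Per1 (0.65, edgeR adjusted p = 0.00342) and Ubn1 (0.58, adjusted p = 0.00212) are among these 3. The other is Trim26, a ubiquitin ligase gene in the MHC, which rose from 35.8 ± 3.31 to 95.2 ± 5.87 CPM (± SD of 3 libraries; edgeR log2 fold change 1.41 with SE 0.117 and adjusted p = 0.000124). The 15 genes also include the nonclassical class I gene H2-M3, which lay at 21 ± 2.29 CPM in control and 17.1 ± 1.52 CPM in KO (−0.30, adjusted p = 0.126).

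Over 250 bases, TGACG was found in 5 of the 8 promoters and CCAAT in 6, where 17.8% and 33.8% of all promoters, and 25.9% and 35.1% of the promoters of tested genes, hold them. TGACG was also found in the promoters of the constitutive Psmb5, with 1 match, and Psmb6, with 2; neither gene was called. The core GAAANNGAAA was found only in B2m among the 8 (2.98% of all promoters), 139 to 130 bases before the start. Only exact matches were sought, so response elements that depart from this core, in H2-K1, H2-D1 or the others, would be missed. The gamma-activated sequence TTCNNNGAA was found only in Psmb8 (7.02% of all promoters), 97 to 89 bases before the start. Psmb10 held none of the 4 motifs. The Tap1 and Psmb9 windows of 250 bases share 225 bases read on opposite strands. The TGACG and CCAAT matches of these genes are the same sites, counted once for each gene.

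**Figure D1:**
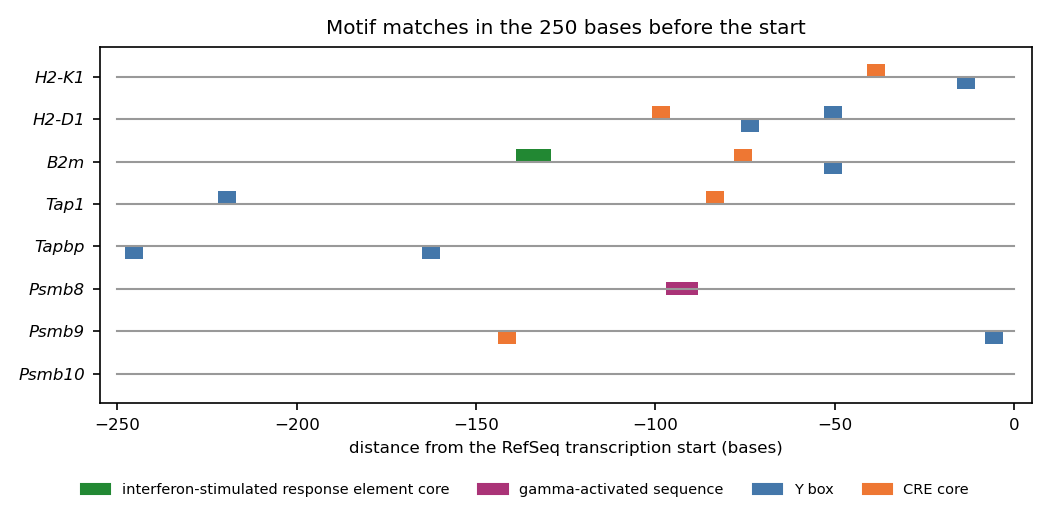
Matches to 4 motifs in the 250 bases before the RefSeq start of 8 of the genes. The x axis is the distance from the start in bases, and boxes above a line are matches on the coding strand and boxes below it on the other strand (the palindromic gamma-activated sequence sits on the line). The TGACG motif and the reverse Y box stand at the same spacing in H2-K1, H2-D1 and B2m.

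RNA of the pathway was higher in RTF1-deficient cells. Of the 10 genes, 9 passed the test as higher in KO and none as lower, while the share of all 14268 tested genes called higher was 23.2% and called lower 22.9% (46.1% in either direction). The 10 genes were chosen with earlier results of these data known, so these shares give scale and are not a test of the set. The log2 fold changes of the 10 genes ran from 0.32 for Psmb8, which did not pass, to 2.45 for Tapbp, with a median of 1.36 beside 0.013 for all tested genes. In 9 genes every KO library lay above every control library, an arrangement found in 29.9% of all tested genes (28.0% had KO below and 57.9% were separated in either direction). The fitted fold ran from 1.25 to 5.47. KO replicate 3 held the highest level of all 6 libraries in 10 of 10 genes, and control replicate 1 the lowest in 8. Of the 6 tested dendritic and myeloid markers given above 2 were called higher as well, and their part in these results was not tested. In bulk RNA a change in the number of cells expressing a gene and a change in RNA per cell cannot be told apart. All 9 calls held in the same direction in each of 14 alternative fits, including those with replicates 1 and 2 only and without KO replicate 3.

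**Figure D2:**
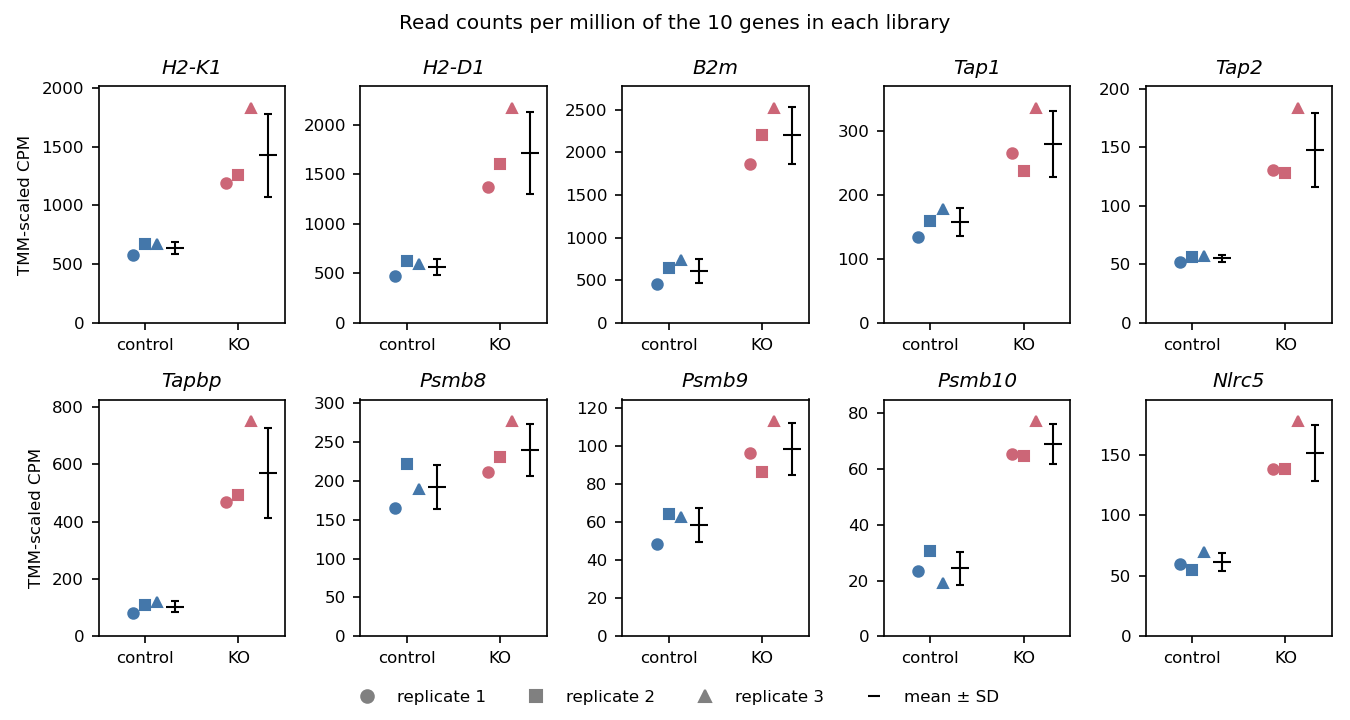
Level of each of the 10 genes in each library. The y axis is TMM-scaled CPM from 0, symbols are the replicates, and the bar beside each group is its mean ± SD (n = 3). KO and control libraries overlap only for Psmb8, and KO replicate 3 is the highest library in every panel.

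The chains of the class I molecule had the highest levels of the set per kilobase of exon, and all 3 rose. The light chain gene B2m, which every classical class I molecule needs to reach the cell surface, held 459, 644 and 738 CPM in control replicates 1, 2 and 3 and 1865, 2210 and 2528 CPM in KO. The lowest KO library held more than the highest control library by a wide margin, and the means were 614 ± 142 and 2201 ± 332 CPM (± SD of 3 libraries; edgeR log2 fold change 1.84 with SE 0.202 and adjusted p = 0.000348). H2-D1 held 479, 630 and 594 CPM in control and 1369, 1605 and 2176 CPM in KO. The groups did not overlap and the KO libraries were the more spread, with means of 567 ± 78.7 and 1717 ± 415 CPM (log2 fold change 1.60, SE 0.197, adjusted p = 0.000535). H2-K1 held 581, 668 and 669 CPM in control and 1190, 1262 and 1833 CPM in KO. Replicate 3 stood apart from the other KO libraries here as well, and the means were 639 ± 50.7 and 1428 ± 352 CPM (1.16, SE 0.183, adjusted p = 0.0015).

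Together the chains took 0.151% to 0.193% of all counts in control and 0.455% to 0.666% in KO. The proportions among them did not overlap between the groups, which was not tested. The groups were also separated, in either direction, for 57.9% of single tested genes. Within a library, H2-D1 counts were 0.825 to 0.943 of H2-K1 counts in control and 1.15 to 1.27 in KO. B2m counts were 0.433 to 0.584 of the summed heavy chains in control and 0.630 to 0.771 in KO. These ratios do not depend on the scaling between libraries. Some division of reads between class I genes is uncertain: 12.8% of the distinct 50-base stretches of H2-D1 transcripts and 9.63% of those of H2-K1 also occur in other genes, mainly H2-Q1 and H2-Q10 respectively, while B2m shares none.

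Tapbp changed most. Tapasin, its product, bridges class I molecules and the peptide transporter. Tapbp held 82.9, 111 and 118 CPM in control and 467, 493 and 751 CPM in KO. The groups were far apart, with means of 104 ± 18.8 and 570 ± 157 CPM (± SD of 3 libraries; edgeR log2 fold change 2.45 with SE 0.220 and adjusted p = 0.000159). On the opposite strand Gm19412 covers 24.9% of the exonic bases of Tapbp, and 1 read in all libraries was assigned to it. The transporter subunit Tap2 held 51.9, 56.2 and 57.3 CPM in control and 130, 128 and 184 CPM in KO. Control libraries were nearly level, and the means were 55.1 ± 2.84 and 148 ± 31.6 CPM (1.42, SE 0.156, adjusted p = 0.000348). Gm15821, antisense to Tap2, covers 14.1% of its exonic bases and held at most 27 counts in a library. The other subunit Tap1 held 135, 160 and 178 CPM in control and 267, 237 and 337 CPM in KO, with means of 158 ± 22 and 280 ± 51.3 CPM (0.83, SE 0.163, adjusted p = 0.00385).

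Since these products act in a single complex, their levels per kilobase of exon were set side by side. In control, Tapbp stood at 28.7 ± 5.17 and Tap1 at 28.8 ± 4.01 CPM per kilobase, with Tap2 lower at 14.6 ± 0.750 (SD, n = 3). In KO, Tapbp stood at 157 ± 43.2, Tap1 at 51.2 ± 9.37 and Tap2 at 39.0 ± 8.36 CPM per kilobase. The ratio of Tapbp to Tap1 within a library was 0.930 to 1.05 in control and 2.64 to 3.36 in KO. The ratio of Tap2 to Tap1 was 0.465 to 0.559 in control and 0.708 to 0.791 in KO. Neither ratio overlapped between the groups, and neither was tested. Among single tested genes, 57.9% had groups that did not overlap, in either direction.

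The immunoproteasome subunits differed among themselves. Psmb10, which replaces Psmb7, held 23.4, 30.8 and 19.1 CPM in control and 65.3, 64.6 and 77.2 CPM in KO. The KO libraries lay close together, and Psmb10 rose from 24.4 ± 5.88 to 69.0 ± 7.07 CPM (± SD of 3 libraries; edgeR log2 fold change 1.49 with SE 0.182 and adjusted p = 0.000521). Psmb9, which replaces Psmb6, held 48.4, 64.7 and 62.7 CPM in control and 96.5, 86.3 and 113 CPM in KO. The groups did not overlap, and the means were 58.6 ± 8.90 and 98.7 ± 13.7 CPM (0.75, SE 0.151, adjusted p = 0.00431). Psmb8, which replaces Psmb5, held 164, 222 and 190 CPM in control and 211, 230 and 277 CPM in KO. Control replicate 2 lay above KO replicate 1, and the difference between 192 ± 28.8 and 239 ± 33.6 CPM did not pass the test (0.32, SE 0.152, adjusted p = 0.115). Psmb8 passed with the replicate number as a block (0.32, adjusted p = 0.0471) and under plain library size scaling (0.41, adjusted p = 0.0407), and its value was 0.15 without control replicate 1.

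Psmb9 and Tap1, which are transcribed in opposite directions from the region shown above, changed by similar amounts (0.75 and 0.83 on the log2 scale). Psmb9 stood at 0.527 to 0.605 of Tap1 per kilobase in control and 0.503 to 0.545 in KO, ranges that overlap. Psmb8, whose gene lies 495 bases beyond the end of Tap1, stood at 1.72 to 2.25 times Tap1 in control and 1.28 to 1.57 times in KO. The exons of Psmb9 and Tap1 overlap over 5.79% of Psmb9, and 14.7% of the exonic bases of Psmb8 are covered on the opposite strand by Gm20496, which held at most 17 counts in a library.

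The constitutive counterparts did not pass the test in either direction. Psmb5 lay at 108 ± 30.9 CPM in control and 97.5 ± 7.50 CPM in KO (± SD of 3 libraries; edgeR log2 fold change −0.14, adjusted p = 0.56), Psmb6 at 123 ± 29.8 and 111 ± 1.79 CPM (−0.15, adjusted p = 0.495), and Psmb7 at 89.4 ± 15.0 and 75.9 ± 6.15 CPM (−0.24, adjusted p = 0.2). Without control replicate 2 the first of these 3 became 0.087 and Psmb6 0.034, and without control replicate 3 Psmb7 passed as lower (−0.42, adjusted p = 0.0302). Psmb5 is uncertain: other genes, mainly Gm3375, hold 54.1% of its 50-base stretches. On the opposite strand Nek6 covers 11.8% of the exonic bases of Psmb7.

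The ratio of each inducible subunit to its counterpart, in counts per kilobase, needs no scaling between libraries. Psmb10 stood at 0.525, 0.591 and 0.516 of Psmb7 in control replicates 1, 2 and 3 and at 1.60, 1.71 and 2.22 times Psmb7 in KO. Per kilobase the inducible subunit was thus below its counterpart in all control libraries and above it in all KO libraries, a difference of 1.75 on the log2 scale. This crossing rests on the exon lengths used, 1705 bases for Psmb10 and 3421 for Psmb7: without them Psmb10 stayed below Psmb7 in KO replicates 1 (65.3 against 82.0 CPM) and 2 (64.6 against 75.8 CPM), while the difference of 1.75 does not depend on length. Psmb9 stood at 0.205, 0.215 and 0.340 of Psmb6 in control and 0.448, 0.390 and 0.527 in KO (difference 0.87). Control replicate 3 lay closest to the KO libraries but did not reach them. Psmb8 stood at 0.427, 0.418 and 0.631 of Psmb5 in control and 0.545, 0.609 and 0.827 in KO (0.43), where the groups overlapped. The exact permutation test, two-sided, gave p = 0.1 for Psmb10 and Psmb9, the smallest value that 3 libraries against 3 allow, and p = 0.3 for Psmb8 (0.15, 0.15 and 0.3 adjusted over the 3 pairs).

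**Figure D3:**
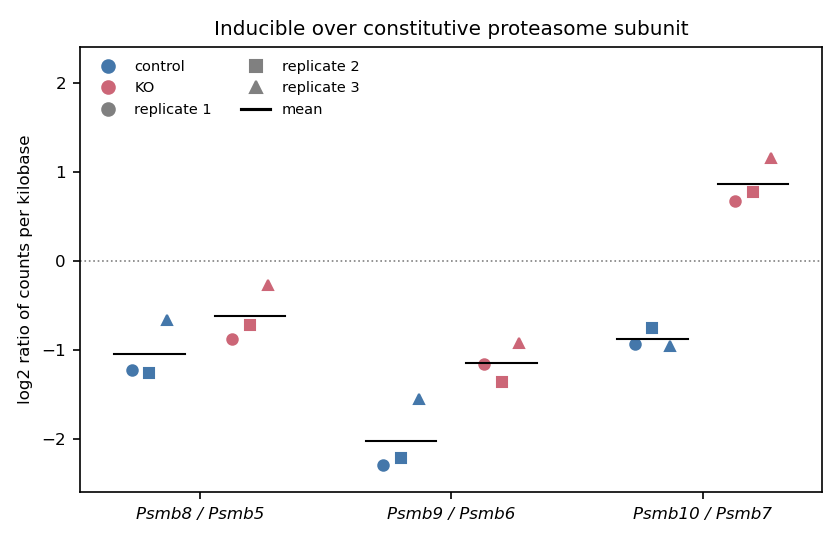
Ratio of each inducible proteasome subunit to its constitutive counterpart. The y axis is the log2 ratio of counts per kilobase of exon in a library, symbols are replicates and lines are group means (n = 3). Psmb10 over Psmb7 is below 0 in all control libraries and above 0 in all KO libraries, and only Psmb8 over Psmb5 overlaps between the groups.

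Nlrc5, the coactivator of class I genes, held 59.8, 54.8 and 69.6 CPM in control and 138, 138 and 178 CPM in KO. The groups were well separated, with means of 61.4 ± 7.53 and 151 ± 22.9 CPM (± SD of 3 libraries; edgeR log2 fold change 1.30 with SE 0.145 and adjusted p = 0.000369). Per kilobase of exon it had the lowest level of the 10 genes in both groups (7.23 ± 0.887 and 17.8 ± 2.70 CPM per kilobase), and B2m the highest (713 ± 165 and 2559 ± 386). Its class II counterpart Ciita was scarce, at 0.195 ± 0.166 CPM in control and 1.90 ± 0.814 CPM in KO (3.10, SE 0.594, adjusted p = 0.00339). The noncoding gene 9330175E14Rik starts within the first part of Nlrc5 and runs the other way. It held 1.58, 2.21 and 3.25 CPM in control and 29.3, 27.2 and 37.3 CPM in KO, so its libraries were separated more widely than those of Nlrc5 (log2 fold change 3.69, SE 0.265, adjusted p = 7.1e-05). The 2 genes overlap over 1.31% of the exonic bases of 9330175E14Rik and 0.918% of those of Nlrc5.

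Other genes that work with these products changed in part. Beside the counts of this list and those that follow, 23.2% of all tested genes were called higher and 22.9% lower. Of 8 further genes of peptide loading and trimming 3 were called higher and none lower, with a median log2 fold change of 0.18. Erap1, the aminopeptidase that trims peptides in the endoplasmic reticulum, rose from 64.7 ± 7.54 to 143 ± 4.41 CPM (± SD of 3 libraries; edgeR log2 fold change 1.14 with SE 0.118 and adjusted p = 0.000264), although 11.5% of its exonic bases lie opposite Cast. Tapbpl, a tapasin-related peptide editor, rose from 43.2 ± 1.97 to 72.8 ± 18.6 CPM (0.75, adjusted p = 0.00781). Pdia3, the disulfide isomerase of the loading complex, rose from 458 ± 79.4 to 662 ± 39.7 CPM (0.53, adjusted p = 0.0172). It missed the threshold with replicates 1 and 2 only (0.44, adjusted p = 0.0641) and on leaving out any of 4 libraries. Without control replicate 1 Pdia3 was 0.40 (adjusted p = 0.141), without control replicate 3 0.39 (0.0925), without KO replicate 2 0.50 (0.0721) and without KO replicate 3 0.53 (0.0533).

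Among 7 tested proteasome counterparts, activators and assembly genes, 1 was called higher and none lower (median 0.049). It was Psme2, a subunit of the interferon-inducible proteasome activator, which rose from 142 ± 24.7 to 266 ± 34.4 CPM (± SD of 3 libraries; edgeR log2 fold change 0.91 with SE 0.158 and adjusted p = 0.00227). Its reads may be divided with its copy Psme2b, which holds 28.3% of its 50-base stretches and was itself called higher (1.12, adjusted p = 0.00199). Its partner Psme1 lay at 149 ± 21.9 and 194 ± 20.4 CPM (0.37, adjusted p = 0.0575). Psme1 passed with the replicate number as a block (0.38, adjusted p = 0.0164), under plain library size scaling (0.46, adjusted p = 0.0189) and without control replicate 2 (0.45, adjusted p = 0.0437), and it shrank to 0.19 without control replicate 1.

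Of 13 tested other class I genes, 5 were called higher and 2 lower, with a median of 0.38. H2-T22, a ligand of gamma delta T cells, rose from 46.2 ± 3.17 to 118 ± 29.8 CPM (± SD of 3 libraries; edgeR log2 fold change 1.36 with SE 0.174 and adjusted p = 0.000616), but 53.5% of its stretches occur in other genes, mainly H2-T10. Mr1, which presents vitamin metabolites, rose from 10.7 ± 2.92 to 23.1 ± 3.66 CPM (1.11, adjusted p = 0.00389). In the Q region H2-Q6 (1.88, adjusted p = 0.0121) and H2-Q4 (0.69, adjusted p = 0.0134) were higher while H2-Q10 was lower, from 13.0 ± 13.3 to 0.687 ± 0.258 CPM (−4.27, adjusted p = 0.00244). Control replicate 3 held 28.3 CPM of H2-Q10 against 6.20 and 4.42 in the other control libraries, and the log2 fold change without it was −3.01. The remaining called genes of this list were scarce: Hfe, an iron regulator (3.50, adjusted p = 0.00407), was higher and H2-Q2 (−5.19, adjusted p = 0.00184) lower. H2-Q6 lost its call without control replicate 2 (1.62, adjusted p = 0.0507) and H2-Q4 without control replicate 1 (0.63, adjusted p = 0.0589), and both share about as much sequence with other genes (35.0% and 36.4%).

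**Figure D4:**
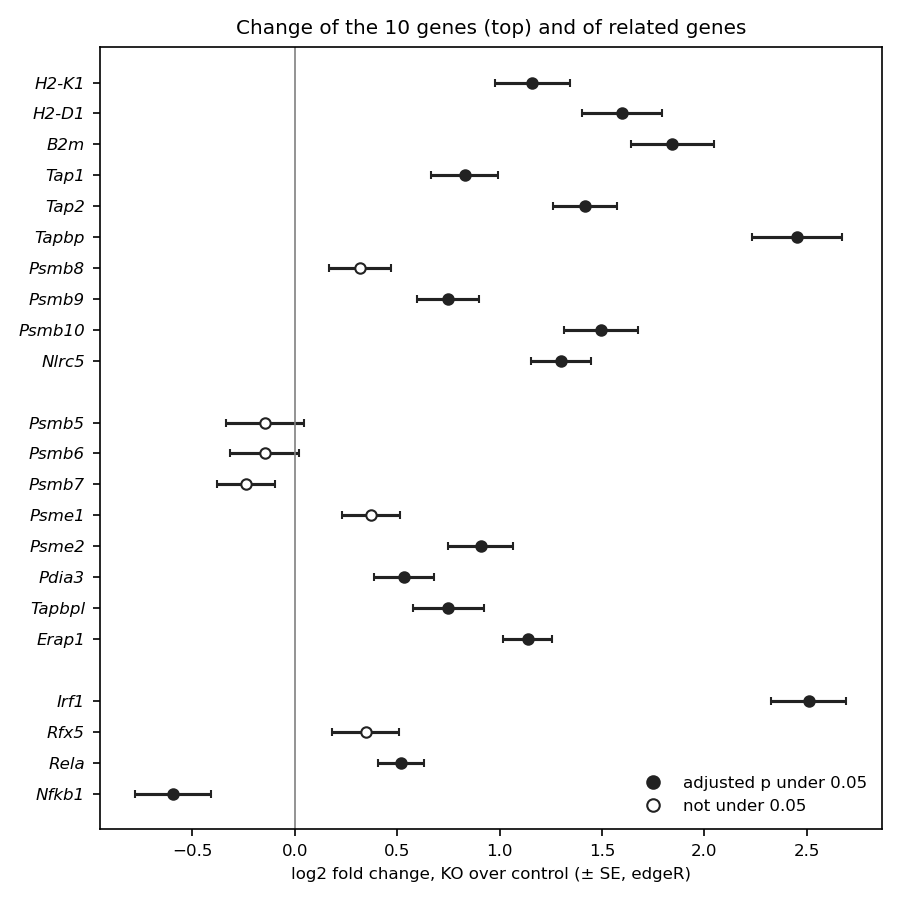
Change of the 10 genes and of related genes. The x axis is the log2 fold change of KO over control with its SE from the edgeR fit (3 libraries a group), and filled points have an adjusted p under 0.05. All 10 genes lie above 0, Psmb8 with an open point, and the constitutive subunits Psmb5, Psmb6 and Psmb7 lie slightly below 0 with open points.

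Of 12 tested factors known to act on class I promoters, 2 were called higher and 1 lower (median −0.027). Irf1, the interferon regulatory factor that binds response elements in these promoters, held 27.4, 36.8 and 39.3 CPM in control and 184, 167 and 239 CPM in KO. Its groups lay far apart (log2 fold change 2.51, SE 0.185, edgeR adjusted p = 7.9e-05). The NF-kB subunit gene Rela rose from 80.9 ± 4.44 to 116 ± 11.4 CPM (SD, n = 3; 0.52, adjusted p = 0.0061), and Nfkb1 fell from 506 ± 124 to 335 ± 31.2 CPM (−0.59, adjusted p = 0.0278). Nfkb1 lost its call under plain library size scaling (−0.51, adjusted p = 0.0509) and on leaving out control replicate 1 (−0.50, adjusted p = 0.0884), control replicate 2 (−0.58, 0.0679), KO replicate 2 (−0.53, 0.109) and KO replicate 3 (−0.58, 0.0777). Rfx5, part of the X box complex that NLRC5 joins, lay at 21 ± 3.73 and 26.7 ± 2.46 CPM (0.35, adjusted p = 0.11). It passed with the replicate block (0.36, adjusted p = 0.0449), with replicates 1 and 2 only (0.44, adjusted p = 0.0468) and without control replicate 3 (0.45, adjusted p = 0.0335). On the opposite strand B230398E01Rik covers 26.8% of its exonic bases. With the block this list had 4 genes called higher and 2 lower.

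Of 11 tested genes of interferon receptors and signalling, 8 were called higher and 1 lower, with a median of 0.65. The receptor genes Ifngr1 (45.9 ± 7.75 to 165 ± 51.7 CPM; ± SD of 3 libraries; edgeR log2 fold change 1.84, adjusted p = 0.000616), Ifnar1 (1.30, adjusted p = 0.000183) and Ifngr2 (1.18, adjusted p = 0.000524) were higher. The signal transducer Stat2 (68.5 ± 19.5 to 168 ± 38.0 CPM; 1.29, adjusted p = 0.00223) was higher too, as were Jak1 (0.65, adjusted p = 0.00228), Irf9 (0.48, adjusted p = 0.0322) and Ifnar2 (0.41, adjusted p = 0.0319). The receptor kinase gene Jak2 fell from 455 ± 50.3 to 335 ± 9.38 CPM (−0.44, adjusted p = 0.0168), a call lost without control replicate 1 (−0.42, adjusted p = 0.0509), KO replicate 2 (−0.43, 0.0746) or KO replicate 3 (−0.43, 0.0614). Together with Irf1, these genes and the 10 class I genes were measured in the same libraries, and their relation across libraries was not tested because the 6 libraries fall into 2 groups.

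Class II genes, several of which neighbour the class I loading genes on chromosome 17, were split. Of 11 tested, 5 were called higher and 5 lower (median 0.12); 3 were called higher without control replicate 1, control replicate 2 or KO replicate 3, and 3 lower with replicates 1 and 2 only. Ctss, the protease that trims the invariant chain (51.2 ± 15.0 to 132 ± 18.5 CPM; ± SD of 3 libraries; edgeR log2 fold change 1.36, adjusted p = 0.00151), and Cd74, the invariant chain (27.2 ± 7.44 to 56.1 ± 24.4 CPM; 1.03, adjusted p = 0.0235), were higher. The call of Cd74 was lost without control replicate 1 (0.79, adjusted p = 0.0956), control replicate 2 (1.02, 0.0734) or KO replicate 3 (0.64, 0.0768). H2-DMa (0.50, adjusted p = 0.0387) lost its call in 8 of 14 alternatives, which include replicates 1 and 2 only (0.39, adjusted p = 0.102) and the removal of any library but KO replicate 2 (0.35 to 0.52). H2-Ab1 fell from 41.6 ± 10.1 to 1.73 ± 0.837 CPM (−4.64, adjusted p = 7.0e-05). H2-Oa (−2.12, adjusted p = 0.00444), H2-Ob (−1.79, adjusted p = 0.0115), H2-DMb1 and H2-DMb2 (−1.92, adjusted p = 0.0105) were also lower, and H2-Aa (2.90, adjusted p = 0.00514) and Ciita were higher. Several of these genes were scarce, as Ciita was. H2-Aa lay at 0.0918 CPM in control and 0.673 CPM in KO, and H2-DMb1 at 0.858 and 0.188 CPM. H2-DMb2 lay at 1.47 and 0.401 CPM, and H2-Ob at 1.73 and 0.496 CPM (means of 3 libraries). The 10 class I genes and the class II genes thus differed in their mix of directions, 9 higher and none lower against 5 and 5, a contrast that was not tested. Several of the class II calls rest on the scarce genes. Of all tested genes 3305 were called higher and 3269 lower, so an even split is not particular to class II.

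**Figure D5:**
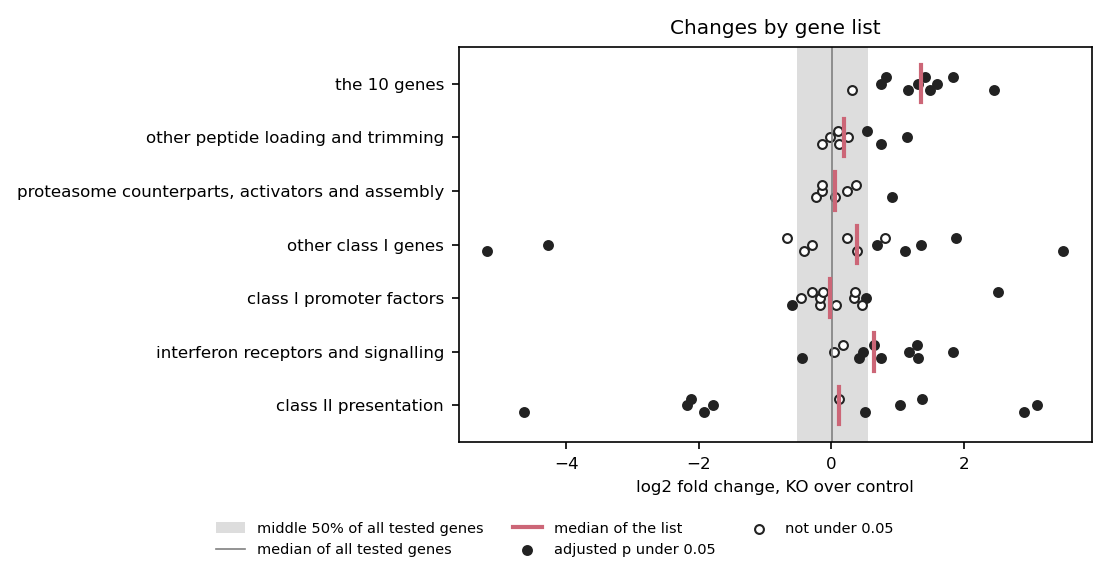
Log2 fold changes of KO over control by gene list. Each point is a tested gene, filled where its adjusted p was under 0.05, the coloured bar is the list's median, and the grey band holds the middle 50% of all tested genes. The 10 genes have a median of 1.36 with no point below 0, while class II genes lie on both sides of 0.

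The neighbours of the 10 genes along the chromosomes were mixed. Of 15 distinct nearest tested neighbours that are not members, 5 were called higher, 2 lower and 8 not. Of all tested genes 23.2% were called higher and 22.9% lower, and whether the neighbours depart from these shares was not tested. Tapbp, the gene with the largest change, lies between Zbtb22, whose transcripts overlap its own start region on the same strand, and Rgl2, 250 bases away. Zbtb22 lay at 21.5 ± 1.68 CPM in control and 21 ± 2.75 CPM in KO (± SD of 3 libraries; edgeR log2 fold change −0.036, adjusted p = 0.856), and Rgl2 at 20.5 ± 1.56 and 20.1 ± 3.08 CPM (−0.023, adjusted p = 0.913). Under plain library size scaling their values were 0.050 and 0.065. Beside H2-K1, Ring1 lay at 19.2 ± 1.13 and 19.3 ± 0.472 CPM (0.0074, adjusted p = 0.967), turning to −0.0021 with DESeq2 size factors, whereas Vps52, 28981 bases away, rose from 67.1 ± 5.81 to 110 ± 8.70 CPM (0.71, adjusted p = 0.00169). Beside B2m, Spg11 rose (0.89, adjusted p = 0.000614; 13.8% of its exonic bases lie opposite Eif3j1) and Trim69 was at 0.189 ± 0.0690 and 0.391 ± 0.0319 CPM (1.04, adjusted p = 0.104). Cpne2 beside Nlrc5 (0.82, adjusted p = 0.0103) and Ctrl beside Psmb10 (1.74, adjusted p = 0.00954) were higher. Ctrl was scarce, at 0.418 ± 0.193 CPM in control and 1.45 ± 0.224 CPM in KO. Lcat, on the other side of Psmb10, had a value of −0.45 (adjusted p = 0.449). The scarce H2-DMb1 beside Psmb9 (−2.18, adjusted p = 0.0119) and Ddx39b beside H2-D1 (−0.52, adjusted p = 0.0197) were lower. The call of Ddx39b was lost in 4 of the 6 fits without a library (without control replicate 1 adjusted p = 0.0632, control replicate 2 0.0551, KO replicate 2 0.0704, KO replicate 3 0.0742), and that of H2-DMb1 without KO replicate 2 (−1.94, adjusted p = 0.0618) and with replicates 1 and 2 only (−1.86, adjusted p = 0.0553). H2-Q1 on the other side of H2-D1 (−0.42, adjusted p = 0.611), and the antisense genes Gm20496 (−0.19, adjusted p = 0.841) and Gm15821 (1.07, adjusted p = 0.086) at Tap2, were scarce and did not pass.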

How the data were processed

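The authors deposited whole-number counts per gene symbol for 6 libraries. STAR, featureCounts, DESeq2 and the build mm10 are named in the submitters' processing notes, without role or version; the annotation, the strand setting and filters are not given in the sources used here. Groups and replicate numbers come from the titles, and columns were matched by the sample descriptions (0 columns without a sample, 0 rows without a gene name). No source mentions molecular identifiers, so depth alone does not set the precision, which the spread between libraries gives.

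In R 4.3.3, the quasi-likelihood test of edgeR 4.0.16 compared KO with control over all 14268 genes kept by filterByExpr, which hold 99.9% of the counts, with TMM factors and no covariate. Benjamini-Hochberg adjustment ran over all tested genes, and 6574 genes (46.1%) with an adjusted p under 0.05 were called. The SE of a log2 fold change is its size over the square root of the F statistic. The script was tested on simulated data. Alternatives were DESeq2 (1.42.0) size factors and Wald test, upper-quartile factors, library size only, 2 other filters, leaving out each library, replicates 1 and 2 only, and the replicate number as a block. Deviations from the group mean correlated across genes at 0.270, 0.130 and 0.379 between libraries of equal number and at −0.390 to 0.204 between libraries of unequal number, where control replicate 2 correlated more with KO replicate 1 than with KO replicate 2 (0.204 against 0.130). Every equal-numbered pair passed 0.1, but so did control replicate 2 with KO replicate 1, so this mark does not set pairs apart. Equal numbers were treated as pairs only in the replicate block, which is an alternative. The main fit, with its SE and p-values, does not use the pairing. The replicate numbers come from the titles, which do not say that equal numbers are pairs. Lengths, positions, overlaps and shared 50-base stretches were taken by symbol from GENCODE M21 (GRCm38, the same assembly as mm10), which held 98.2% of the symbols. Promoters are RefSeq's, searched as exact strings on both strands. Genes named are the 10, Rtf1, fixed related genes, up to 4 called genes per list and direction with a mean of at least 5 CPM, and nearest tested neighbours. Trim26, H2-M3, Per1, Ubn1, Hspa14, Eomes, Gzma, Cd8a, Cd8b1, Klrd1, Ighm and Cd79b were named after their values were seen and have no alternatives. The same holds for the other called genes of the class I, class II and interferon lists. The members and lists were chosen with earlier results of these data known. Values of some listed genes are not reported here.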

Additional observations from a re-analysis of the deposited data

How the results depend on the processing

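For the 9 called class I genes, all 126 values from 14 alternatives kept direction and call, and with the replicate block or library size as the only scaling 10 genes were called. All tested genes gave 4460 calls without KO replicate 2 to 7050 without control replicate 3, 4394 of the former among the 6574; with the replicate block there were 7628. The block changed the call of Psmb8, Psme1 and Rfx5 and of no other gene named by the rule. The median of all genes moved by at most 0.088 (library size only). The ratio differences ran, with a library left out, from 0.25 to 0.62 for Psmb8 to Psmb5, 0.74 to 1.11 for Psmb9 to Psmb6 and 1.60 to 1.84 for Psmb10 to Psmb7; the replicate block as an exact sign-flip test gave p = 0.25, the smallest for 3 pairs. Reversals were limited to genes near 0 or scarce, and their cause was not tested. Ring1 gave −0.0021 (DESeq2 size factors), −0.013 (upper-quartile factors), −0.012 (DESeq2 test), −0.0040 (any count) and −0.050 to 0.031 without a library. Zbtb22 gave 0.050 (library size only) and −0.14 to 0.037 without a library, Rgl2 0.065 (library size only), 0.049 (replicates 1 and 2 only) and −0.15 to 0.067 without a library, and Gm20496 0.22 (replicates 1 and 2 only) and −0.75 to 0.21 without a library. With a library left out, Psmb5 ran from −0.39 to 0.087, Psmb6 from −0.37 to 0.034 and H2-Q1 from −1.02 to 0.50. Read length and strand are unknown, which limits genes with overlapping or shared exons.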
